A study of Homo sapiens with 16 samples.

Results

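Nascent RNA was followed in the middle of long human genes, from 30 to 60 kb downstream of the transcription start site (TSS), as RNA polymerase II (RNAPII) restarted after removal of the elongation inhibitor DRB. The window was chosen by distance alone: it holds the 30000 positions from 30 kb up to 60 kb, of the 122001 positions in each averaged profile, and was read as 6 of the 24 bins of 5 kb between the TSS and 120 kb. Each position carries the normalized read depth averaged over long protein-coding genes (30 kb or more), so every value below is a property of that average gene and not of any single one.

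All 16 libraries came from RECQL5-shutoff cells, made from HEK293T-Rex, a human embryonic kidney line that carries a tetracycline-controlled repressor. Every cell, controls included, stably expressed an shRNA against the endogenous RECQL5 and carried an shRNA-resistant RECQL5 under doxycycline control. WT cells were kept in doxycycline and made the resistant protein, whereas in KD cells it had been withdrawn for 4 days. Clones 15 and 18, selected independently, were each profiled as WT and as KD at 0, 10, 25 and 40 min after DRB was washed out, which gave 1 library for each clone, genotype and time. DRB, dosed at 100 mM per the labels but in micromolar units per the methods, was applied to all cells. The sample labels list these times as doxycycline times, while the treatment text gives them as times after release from DRB. A difference between WT and KD therefore includes the presence or absence of doxycycline itself, and its p-values measure the spread between 2 clones. Unpaired tests of time steps pool WT and KD of the same 2 clones, so the 4 libraries of a time are not independent. Neither the RECQL5 level nor markers of the cell line can be read from profiles averaged over genes.

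DRB blocks P-TEFb, the kinase that releases RNAPII from its promoter-proximal pause, while polymerases already in the gene body run on to the end. Release from DRB lets paused polymerases enter the gene together, and GRO-seq, in which engaged polymerases extend their transcripts with a labelled nucleotide in isolated nuclei, maps that wave. RECQL5 is a RecQ family helicase that binds RNAPII directly and is known to restrain transcript elongation. A window in the middle of the gene is empty of new polymerases at first, meets the leading edge next, and later lies within the body of the wave.

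Fewer genes contributed to each successive bin. In the GENCODE 44 annotation of GRCh37, which is the coordinate system of the files' hg19 build, 8888 protein-coding genes had a protein-coding transcript of at least 30 kb. The authors used an Ensembl gene list that was not used here, so the shares that follow describe a close counterpart of their genes. Of the 8888 genes, 91.0% ran through the whole of the bin from 30 to 35 kb, 76.6% through that from 40 to 45 kb and 60.2% through that from 55 to 60 kb. In all, 3533 genes, or 39.8%, ended inside the window. Depth in an outer bin is thus an average over transcribed gene and over sequence past the gene's end, of which 51.8% between 55 and 60 kb lay inside some protein-coding gene. Base composition was nearly level, from 42.6% to 43.0% GC. Exons took 6.12% of the transcribed bases between 30 and 35 kb, against 3.85% between 25 and 30 kb, and the first intron took 29.8% of them in the innermost bin and 23.6% in the outermost.

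**Figure D1:**
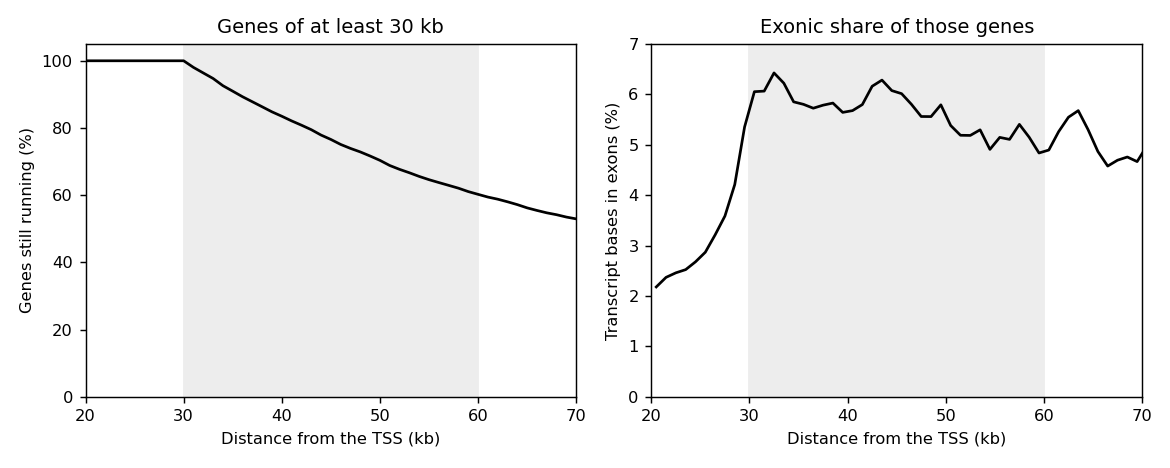
The left panel plots the percent of 8888 GENCODE 44 genes of at least 30 kb that were still running against the distance from the TSS in kb, and the right panel plots the percent of their transcript bases that lay in exons, in 1 kb steps. The share of running genes fell from 100% at 30 kb to 60.2% at 60 kb, and the exonic share stood higher just past 30 kb than before it.

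The window held between 1558780 and 6468550 reads per library, counted from the depth that 1 read adds and the 250 bp to which reads were extended, so its counting error was at most 0.0801% of the depth. Within a 5 kb bin the counting error was at most 0.207%. These errors cover counting only. Local structure was shared by the libraries: after removal of the trend along the window, the 1 kb bins of any 2 libraries correlated with a median Pearson r of 0.641 over 120 pairs of libraries and 30 bins, with a range from 0.262 to 0.921. This r is across positions that share genes, mappability and sequence, and is a description only.

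Before the wave arrived, depth in the window was low and rose gently outward. Averaged over the window at 0 min, it was 1.55 in WT of clone 15, 1.83 in KD of clone 15, 1.60 in WT of clone 18 and 1.69 in KD of clone 18. By bin, the mean of the 4 libraries went from 1.55 ± 0.192 (SD, n = 4) between 30 and 35 kb to 1.74 ± 0.0781 between 55 and 60 kb. KD of clone 15 stood apart here, with a profile that was almost level across the window. The depth of its innermost bin less that of its outermost was -0.0120, whereas this difference was -0.226 in KD of clone 18 and -0.264 and -0.265 in the WT libraries. Its depth within 5 kb of the TSS was 1.86 at 0 min and 2.47 at 10 min, against 5.60 or more and 7.04 or more in the other libraries. Steps between successive times over the window, some steps of single bins and the window's share are therefore given without it as well. KD against WT is given by clone. Other values averaged over the 4 libraries include it.

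A step in depth at 30 kb was already there at 0 and 10 min. From the bin at 25 to 30 kb to that at 30 to 35 kb, depth rose in all 8 of these libraries, by between 9.68% and 12.7%. Part of this was the slope within the bins. From 29 to 30 kb to 30 to 31 kb, the rise was between 3.83% and 5.71%. The exonic share of the annotated transcripts rose across the same border, as did the share of positions past a gene's end, and their part in the step was not tested. No such step was seen at the outer border at these times, where log2 depth differed by at most 0.00662 between 55 to 60 and 60 to 65 kb.

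At 10 min no rise was seen in the window. Depth there was 1.37 in WT of clone 15, 1.84 in KD of clone 15, 1.42 in WT of clone 18 and 1.53 in KD of clone 18. From 0 to 10 min log2 depth changed by a mean of -0.12 ± 0.0842 (SD, n = 4 series of clone and genotype), lower in 3 series and by 0.00276 higher in KD of clone 15 (exact permutation test, two-sided, p = 0.286). Without KD of clone 15 the change was -0.16, at p = 0.1, the smallest that an exact permutation test of 3 against 3 allows. None of the 6 bins, and none of the 24 between 0 and 120 kb (0%), had all 4 libraries at 10 min below all 4 at 0 min.

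**Figure D2:**
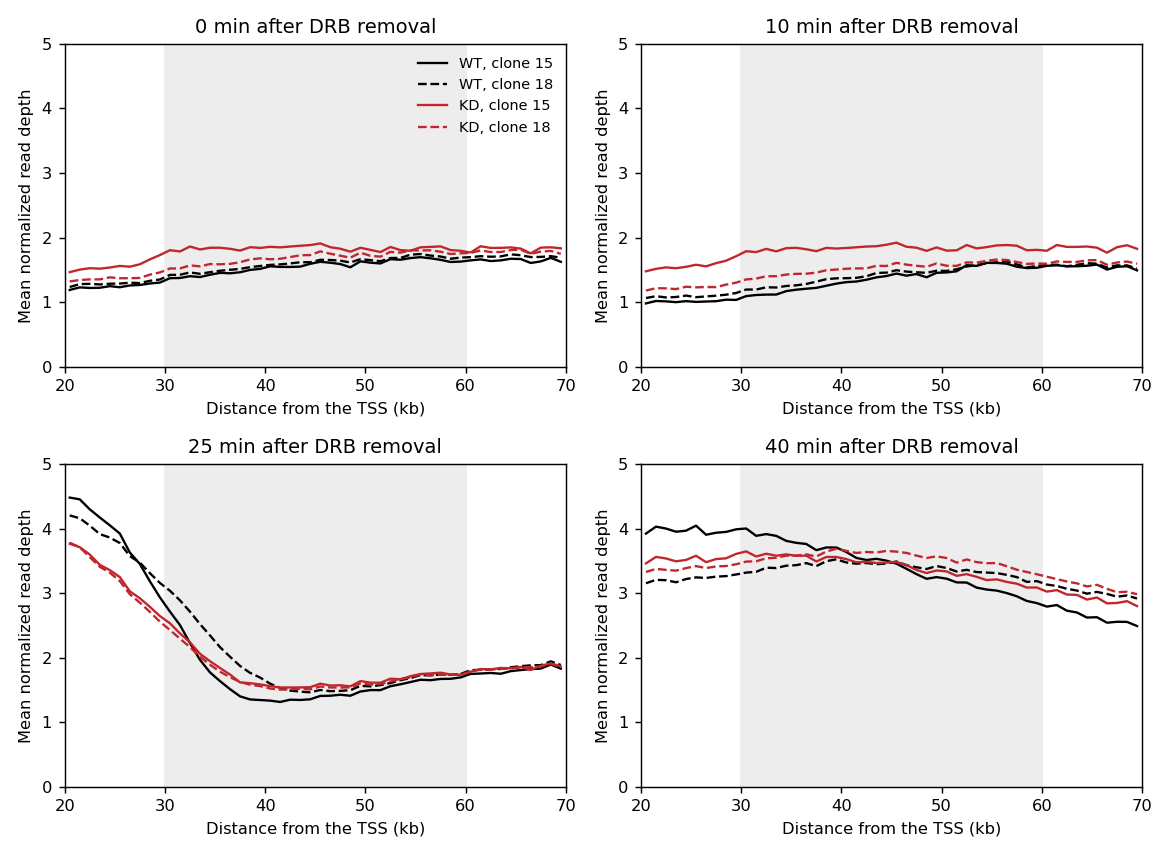
Mean normalized read depth in 1 kb bins is plotted against the distance from the TSS (20 to 70 kb) in 4 panels, 1 per time after DRB removal, with WT in black, KD in red, clone 15 as solid and clone 18 as dashed lines, and the 30 to 60 kb window shaded. Depth in the window averaged between 1.37 and 1.84 at 0 and 10 min, fell steeply across the first bins at 25 min, and averaged between 3.39 and 3.54 at 40 min.

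At 25 min the rise had come at least into the innermost bin. From the bin at 35 to 40 kb to that at 40 to 45 kb, depth rose in all 4 libraries at 0 and 10 min. At 25 min it fell there in all 4, so the outward fall in depth ran on past 35 kb. Between 30 and 35 kb, depth was 2.24 in WT of clone 15, 2.23 in KD of clone 15, 2.70 in WT of clone 18 and 2.16 in KD of clone 18. All 4 values exceeded all 4 at 10 min, a 1.71-fold rise in mean (p = 0.0286 in a two-sided exact permutation test, the lowest that 4 against 4 allows; adjusted p = 0.0403 over 24 bins). With the 4 series paired, p was 0.125, which is the smallest that a paired test of 4 allows. Without KD of clone 15 the rise was 1.9-fold, still with no overlap (p = 0.1, the smallest for 3 against 3 in an exact permutation test). It was the only bin of the window in which all 4 libraries had risen above those at 10 min, whereas 70.8% of the 24 bins had, those beyond 65 kb among them. The gain from 10 to 25 min was not uniform along the gene. It was 0.966-fold between 40 and 45 kb, 1.14-fold between 65 and 70 kb and 1.21-fold between 115 and 120 kb. Mean depth from 110 to 120 kb was 1.58 at 10 min and 1.92 at 25 min, and the cause of the distant rise was not tested.

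From 35 kb outward the bins at 25 min did not rise beyond the spread. Between 35 and 40 kb, depth was 1.45 in WT of clone 15, 1.68 in KD of clone 15, 1.90 in WT of clone 18 and 1.65 in KD of clone 18, which overlapped the values from 1.23 to 1.82 at 10 min (exact permutation test, p = 0.229). The log2 step of this bin was 0.24 in WT of clone 15, 0.53 in WT of clone 18 and 0.17 in KD of clone 18. In KD of clone 15 it was -0.12. In the next bins out, the means at 25 min were 1.48, 1.52, 1.62 and 1.72, and each overlapped the range at 10 min. Over the whole window log2 depth changed from 10 to 25 min by a mean of 0.17 ± 0.184 (SD, n = 4), higher in 3 of 4 series (exact permutation test, p = 0.2). This step was 0.25 without KD of clone 15 and ran from 0.0792 to 0.26 when either clone was left out, but it was -0.11 with libraries brought to the same depth at 110 to 120 kb. In the bin at 40 to 45 kb, chosen after its values were seen, the change was -0.05 (p = 0.686, exact permutation test), -0.33 with that scaling (p = 0.0286, exact) and 0.0226 without KD of clone 15. Against 0 min, however, the bins at 40 to 45 and 45 to 50 kb were lower in all 4 libraries than in any at 0 min, at 0.881 and 0.891 times the earlier level (exact permutation test, p = 0.0286 for each; adjusted p = 0.0361 over 24 bins). These were the only bins with that pattern, 8.33% of the 24. Paired by series, p was 0.125 for each. Without KD of clone 15 both still lay below, at 0.899 and 0.9 times the earlier level (exact permutation test, p = 0.1, the smallest possible).

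A trough thus separated the front from the far gene body. The lowest 1 kb running mean lay 41.4 kb from the TSS in WT of clone 15, at 42.9 kb in KD of clone 15, at 44.3 kb in WT of clone 18 and at 44.2 kb in KD of clone 18, with a mean of 43.2 ± 1.34 kb (SD, n = 4). Depth at the trough was 1.31, 1.53, 1.45 and 1.503 in that order. The log2 difference from the same position at 0 min averaged -0.21 ± 0.07 (SD, n = 4) and was negative in all 4 libraries. Against 10 min, by contrast, it was 0.000484 and 0.0025 in the WT libraries of clones 15 and 18, and -0.28 and -0.0398 in the KD libraries, so the WT trough stood no lower than at 10 min. Outward from the trough to the bin at 55 to 60 kb, depth rose by 0.274 ± 0.0610. The trough was lower in both WT libraries than in either KD library, by 0.131 on average (exact permutation test, p = 0.333, the smallest that 2 against 2 can give). In the bin at 40 to 45 kb, where the trough lay, both WT libraries were below both KD libraries at 0 and 10 min too.

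Since depth before the wave was neither zero nor level, the wave was also measured as the excess over each library's own 0 min profile, after the latter was brought to the same mean depth at 110 to 120 kb. The excess in a bin was then given as a percent of that at 10 to 20 kb in the same library, here called fill, and a bin with at least 10% fill was counted as reached. On this measure the wave had reached 1 bin, that at 30 to 35 kb, in WT of clone 15 (16.6%), WT of clone 18 (32.6%) and KD of clone 18 (15.1%), but none in KD of clone 15 (5.42%). With the WT 0 min profile as the background of both genotypes, that bin was reached in all 4 libraries, and with 20% as the threshold in WT of clone 18 alone. Between 35 and 40 kb fill was 1.97% in WT of clone 18 and negative in the other 3 libraries. From 40 kb outward all 4 libraries were negative in each bin, between -9.62% and -23.5%. Negative fill means that the scaled 0 min profile lay above the depth there. Mean depth at 110 to 120 kb, which set the scaling, was 1.63 at 0 min and 1.92 at 25 min. A fill of 0 is thus not the local level ahead of the front, and the reached bins and 10% distances rest on this scale. The last position with 10% fill was 33.3 kb from the TSS in WT of clone 15, 31.8 kb in KD of clone 15, 35.8 kb in WT of clone 18 and 33.4 kb in KD of clone 18. KD minus WT was -1.53 kb in clone 15 and -2.38 kb in clone 18, and the genotypes overlapped (mean -1.95 kb, exact permutation test, p = 0.667). Paired by clone, p was 0.5, the smallest possible (exact sign-flip test). The sign in clone 15 depended on its 0 min profile: the difference was 0.845 kb there and -1.89 kb in clone 18 with the WT 0 min background (mean -0.525 kb, p = 1, exact), and 0.539 and -2.39 kb over a level background (mean -0.923 kb, p = 1, exact).

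**Figure D3:**
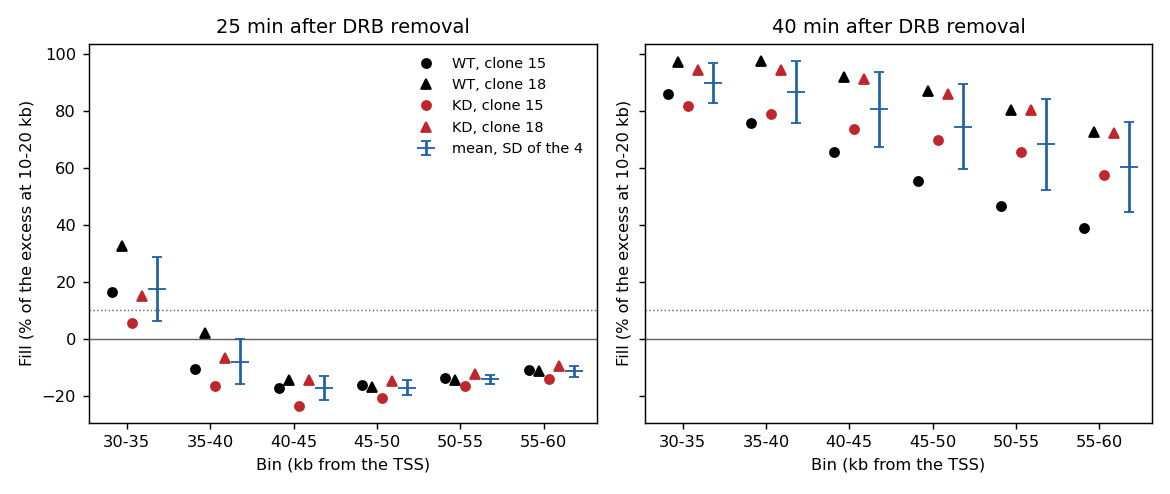
Fill, the excess depth over the scaled 0 min profile as a percent of that at 10 to 20 kb, is plotted for each 5 kb bin at 25 and at 40 min, with 1 point per library (WT black, KD red, clone 15 circles, clone 18 triangles). At 25 min values above 10% occurred in the innermost bin alone, and at 40 min all bins lay between 38.9% and 97.6%.

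The window filled between 25 and 40 min. Mean depth went from 1.61 to 3.43 in WT of clone 15, from 1.83 to 3.39 in WT of clone 18, from 1.74 to 3.41 in KD of clone 15 and from 1.71 to 3.54 in KD of clone 18. The 2 times did not overlap, and the rise was 2.0-fold (log2 1.0 ± 0.0893, SD, n = 4 series; exact permutation test, p = 0.0286; adjusted p = 0.0857 over the 3 time steps, above 0.05). With pairing by series p was 0.125, the smallest possible. Without KD of clone 15 the step was 1.01 on the log2 scale, at p = 0.1, again the smallest possible with 3 against 3 in an exact permutation test.

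Each of the 6 bins was higher at 40 min, and all 4 libraries at 40 min exceeded all 4 at 25 min in every bin of the window (exact permutation test, p = 0.0286; adjusted p = 0.0457 over 24 bins). Paired by series, p was 0.125 in each bin, the smallest possible, and so past no threshold of 0.05. The absence of overlap held for 45.8% of the 24 bins between the TSS and 120 kb. Against 0 min, too, all 6 bins had every library at 40 min above every earlier one, as had 95.8% of the 24, at 2.33-fold in the innermost bin and 1.82-fold in the outermost. From 25 to 40 min the fold rise was 1.55 in the innermost bin, 2.16 between 35 and 40 kb, 2.40 between 40 and 45 kb, 2.26 between 45 and 50 kb, 2.05 between 50 and 55 kb and 1.84 in the outermost. The bin with the trough at 25 min therefore rose the most in fold. The innermost bin, in which all 4 libraries had already risen by 25 min, rose the least.

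**Figure D4:**
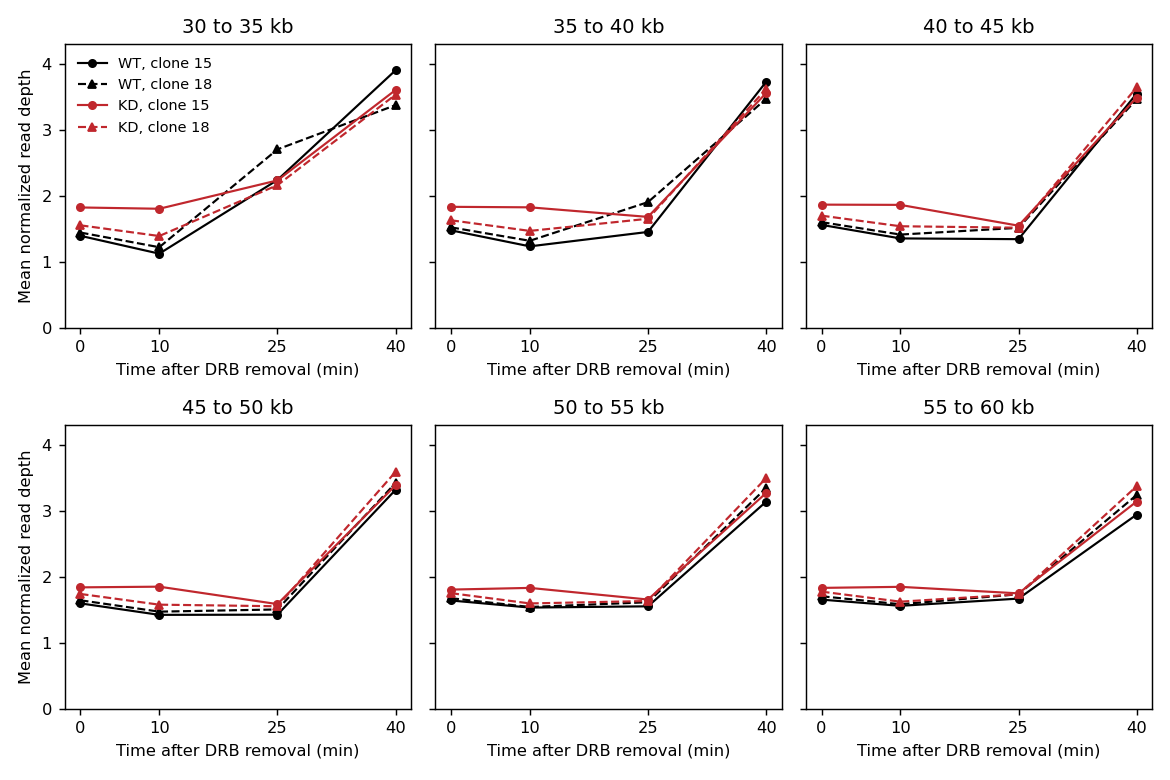
Each panel gives 1 of the 6 bins, with mean normalized read depth on the vertical axis against minutes after DRB removal, and 1 line per series of clone and genotype (WT black, KD red, clone 15 solid with circles, clone 18 dashed with triangles). At 25 min the innermost bin had risen above its 10 min values in all 4 series, and at 40 min every bin lay between 2.94 and 3.90.

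The window's share of the signal does not depend on how libraries were scaled. The window spans 25% of the distance from the TSS to 120 kb and held 23.6% ± 2.28 (SD, n = 4) of the depth there at 0 min and 21.4% ± 3.73 at 10 min. Its share was 17.6% ± 0.898 at 25 min and then 29.8% ± 0.206 at 40 min. Without KD of clone 15 these means were 22.5%, 19.8%, 17.4% and 29.9%. The rise from 25 to 40 min exceeded the spread (exact permutation test, p = 0.0286; paired p = 0.125). Relative to the 10 to 20 kb stretch nearer the promoter, the window was deeper in all 8 libraries at 0 and 10 min, at mean ratios of 1.3 and 1.33. That ratio was 0.395 ± 0.0336 (SD, n = 4) at 25 min and 0.985 ± 0.0982 at 40 min, at which time the middle of the gene was about as deep as the 10 to 20 kb stretch.

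How full the bins were at 40 min depended on the distance and on the clone. Between 30 and 35 kb, fill was 86.2% in WT of clone 15, 82.0% in KD of clone 15, 97.3% in WT of clone 18 and 94.4% in KD of clone 18. Between 55 and 60 kb the corresponding values were 38.9%, 57.6%, 72.6% and 72.3%. Averaged over the 4 libraries, fill was 89.9%, 86.7%, 80.7%, 74.6%, 68.3% and 60.3% from the innermost bin to the outermost. Both libraries of clone 18 were fuller than both of clone 15 in each of the 6 bins. Fill is relative to the 10 to 20 kb stretch, where clone 15 was deeper at 40 min. Depth there was 4.01 (WT) and 3.53 (KD) for clone 15, against 3.18 (WT) and 3.35 (KD) for clone 18. Excess depth over the window overlapped between the clones: 1.64 (WT) and 1.38 (KD) for clone 15, 1.55 (WT) and 1.62 (KD) for clone 18. In the innermost bin it was highest for WT of clone 15, at 2.30, and in the outermost both clone 18 libraries were higher.

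When the excess was divided by the share of genes that extended to the position, the libraries went different ways along the window. WT of clone 15 then had 90.3% fill in the innermost bin and 62.2% in the outermost, and KD of clone 15 had 85.9% and 92.2%. In clone 18 it rose above 100%, from 102% to 116% in WT and from 99.0% to 116% in KD. The part of gene length in the outward fall of fill was not settled by this division. Depth itself declined across the window at 40 min by 0.957 in WT of clone 15, by 0.460 in KD of clone 15, by 0.131 in WT of clone 18 and by 0.157 in KD of clone 18. The 50% level of fill was crossed inside the window in WT of clone 15 alone, at 51.5 kb, and beyond it in the others, at 62.2 kb in KD of clone 15, 72.3 kb in WT of clone 18 and 71.1 kb in KD of clone 18.

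KD and WT were next compared at each time, the question being whether loss of RECQL5 changes how far and how fully RNAPII has advanced. With 2 clones the smallest p of an exact permutation test is 0.333 without pairing and 0.5 with WT and KD paired by clone. None of the 13 comparisons made in the window could therefore pass a threshold of 0.05, and the adjusted p was 1 for each. The p-values below are without pairing unless stated. The values of each clone are given instead. At 0 min the log2 ratio of KD to WT depth was 0.24 in clone 15 and 0.08 in clone 18 (mean 0.16, p = 0.333, exact). At 10 min it was 0.42 in clone 15 and 0.10 in clone 18 (mean 0.26, p = 0.333, exact). At 25 min the clones had opposite signs, 0.11 in clone 15 and -0.10 in clone 18 (mean 0.01, p = 1, exact). At 40 min they again differed in sign, -0.01 in clone 15 and 0.07 in clone 18 (mean 0.03, p = 0.667, exact).

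The excess of KD at 0 and 10 min covered the whole window and most of the gene, but not its start. Between the TSS and 5 kb the log2 ratio of KD to WT was -2.13 in clone 15 and -0.36 in clone 18 at 0 min, and -2.55 and -0.67 at 10 min. As libraries were scaled to a fixed total, less signal at the start goes with more elsewhere, and the part of this in the excess was not tested. With libraries brought to the same depth at 110 to 120 kb, the mean log2 ratio in the window was 0.10 in place of 0.16 at 0 min and 0.21 in place of 0.26 at 10 min. With libraries brought to the same total between the TSS and 120 kb, it was 0.19 at 0 min and 0.38 at 10 min. KD depth was above WT in all 30 bins of 1 kb in both clones, at 0 min as at 10 min. The same held for 97.5% of the 120 bins between the TSS and 120 kb at 0 min and for 90.8% at 10 min, so the window did not stand out. Both KD libraries exceeded both WT libraries in all 6 of the 5 kb bins at both times, against 91.7% and 83.3% of the 24 bins. The log2 ratio was largest at the inner end, 0.39 in clone 15 and 0.11 in clone 18 between 30 and 35 kb at 0 min, and 0.15 and 0.06 between 55 and 60 kb. Most of the mean difference came from KD of clone 15, the library with the level profile.

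**Figure D5:**
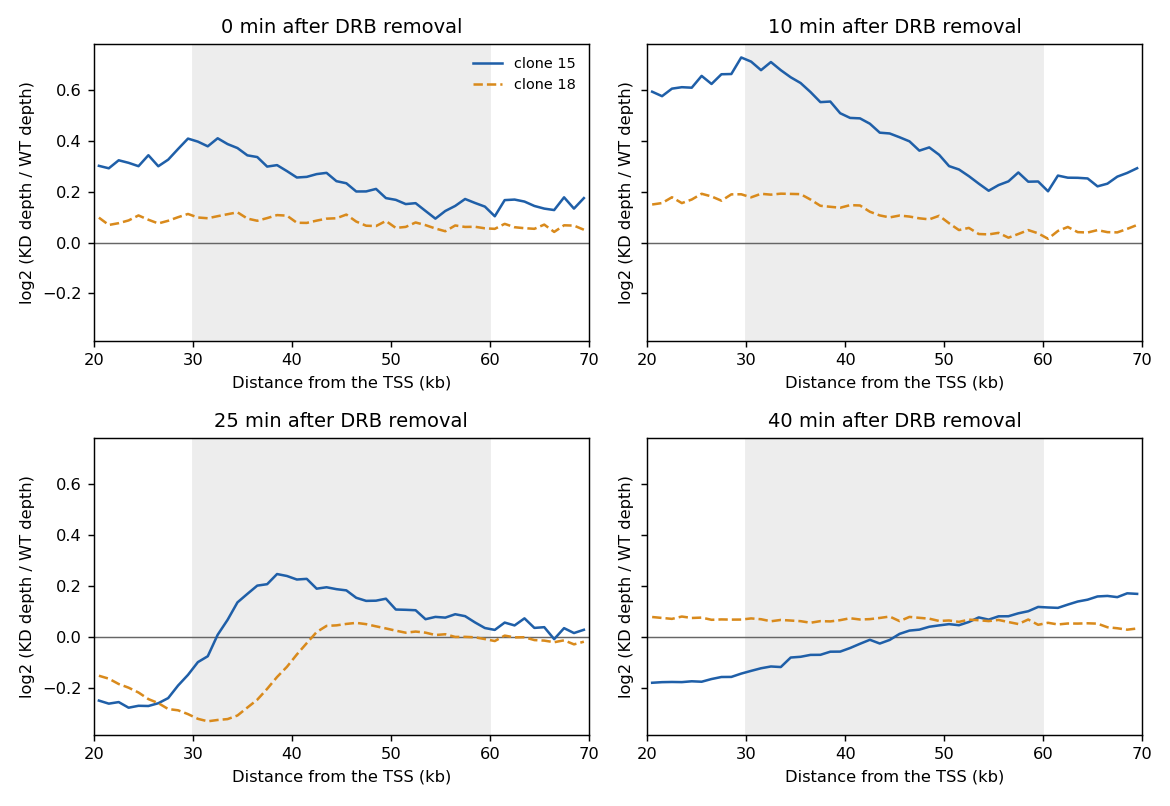
The log2 ratio of KD to WT depth in 1 kb bins is plotted against the distance from the TSS (20 to 70 kb) in 4 panels, 1 per time, with clone 15 as solid and clone 18 as dashed lines, a line at 0 and the window shaded. Both clones stayed above 0 at 0 and 10 min, the ratio of clone 15 turned positive at 32.3 kb at 25 min and at 44.98 kb at 40 min, and that of clone 18 was positive in all 30 bins at 40 min.

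At 25 min the sign of the difference changed along the window. In the bin at 30 to 35 kb, KD less WT depth was -0.543 in clone 18 (log2 -0.32) and -0.00626 in clone 15 (log2 -0.00404), the latter being about the size of the counting error. Both KD libraries were thus below both WT libraries in that bin, as in 33.3% of the 24 bins. The separation was lost when libraries were brought to the same depth at 110 to 120 kb (mean log2 ratio -0.12 in place of -0.16, p = 0.667, exact permutation test) or to the same total (-0.0986, p = 1, exact). The bin at 35 to 40 kb was split, at 0.21 in clone 15 and -0.21 in clone 18. Both KD libraries exceeded both WT libraries in the 3 bins from 40 to 55 kb, which were the only 3 of the 24 bins, 12.5%, to show this. The log2 ratios there were 0.20, 0.15 and 0.09 in clone 15 and 0.00167, 0.05 and 0.02 in clone 18 (p = 0.333 for each, exact permutation test), so the difference in clone 18 was small throughout and, between 40 and 45 kb, within counting error. In the same 3 bins both KD libraries had exceeded both WT libraries at 0 and 10 min as well. Between 40 and 45 kb the log2 ratio was 0.26 at 0 min and 0.46 at 10 min in clone 15, and 0.09 and 0.12 in clone 18. The excess over the 0 min profile in that bin at 25 min differed between KD and WT by -0.0370 in clone 15 and 0.0309 in clone 18. In the outermost bin at 25 min the log2 ratio was 0.07 in clone 15 and -0.000375 in clone 18.

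Counted in 1 kb bins at 25 min, KD was above WT in 28 of 30 in clone 15 and in 14 of 30 in clone 18. It was above in both clones in 14 bins, against 16.7% of all 120, below in both in 2, against 39.2%, and of opposite sign in 14, against 44.2%. Clone 15 changed sign once, at 32.3 kb. Clone 18 first did so at 42.0 kb and then stayed near 0, with 10 changes of sign in a 1 kb running mean. With the libraries brought to the same depth at 110 to 120 kb, the number of bins with KD above in clone 18 was 19, and in both clones 19.

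The decline of depth across the window at 25 min was smaller in KD in both clones. In clone 15, depth between 30 and 35 kb exceeded that between 55 and 60 kb by 0.567 in WT against 0.481 in KD. The corresponding values in clone 18 were 0.965 against 0.423. KD minus WT averaged -0.314 (exact permutation test, p = 0.333), and both KD values were below both WT values. The excess over the 0 min profile, averaged over the window, differed between KD and WT by -0.0823 in clone 15 and -0.0858 in clone 18 (p = 0.667, exact; paired by clone, p = 0.5, exact sign-flip test, the smallest possible). The mean, -0.0841, depended on the background. It was 0.0579 over a level background and 0.0569 when the WT 0 min profile served both genotypes, but -0.218 over the 10 min profiles, where both KD libraries were below both WT libraries (p = 0.333, exact).

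At 40 min the clones differed at the inner end and had the same sign at the outer end. In clone 15 the log2 ratio of KD to WT ran from -0.12 between 30 and 35 kb through -0.07 and -0.02 to 0.03, 0.06 and 0.09 in the bin at 55 to 60 kb. In clone 18 it stayed between 0.06 and 0.07 in all 6 bins. KD was above WT in 15 of the 30 bins of 1 kb in clone 15, those from 45 kb outward, and in all 30 in clone 18. Both clones had KD above in 15 bins, against 53.3% of all 120, and opposite signs in 15, against 46.7%. In no 5 kb bin did both KD libraries exceed both WT libraries, within the window or elsewhere (0%). Within it, KD of clone 15 was below WT of clone 15 in the 3 inner bins and below WT of clone 18 in the 3 outer ones.

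Fill at 40 min did not separate the genotypes. Over the whole window it was 61.5% (WT) and 71.3% (KD) in clone 15 and 87.8% (WT) and 86.5% (KD) in clone 18 (mean difference 4.20 percentage points, exact permutation test, p = 1). The difference in fill between the clones, in either genotype, was larger than that between KD and WT in either clone. Fill and the 50% distance both rest on depth at 10 to 20 kb, which was higher in clone 15 at 40 min. The 50% level lay 10.7 kb farther out in KD in clone 15 and 1.12 kb nearer in clone 18 (mean 4.80 kb farther, p = 1, exact). The outward decline of depth differed between KD and WT by -0.498 in clone 15 and 0.0261 in clone 18 (p = 1, exact). Nor did the step in depth from 25 to 40 min differ by genotype beyond the spread, at a mean log2 step of 0.99 in WT and 1.01 in KD (p = 1, exact permutation test).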

How the data were processed

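GRO-seq libraries were strand specific; the strand counted is not given in the sources used here. Per the methods and labels, single-end reads of 36 bp were aligned by the authors with BWA 0.5.9 (CASAVA 1.8.2 is also listed) to hg19, with 3 alignments at most, and stripped of rRNA and blacklisted regions. They were lengthened to 250 bp, libraries were set to 20000000 reads, and the authors took a trimmed mean (0.01) over genes at each position. The deposited values are this signal, a mean coverage from 2 kb upstream of the TSS to 120 kb. Scaling to a fixed total makes each depth relative to the rest of its library. All values were whole multiples of 1 read (tolerance 0.02 reads), which gave the read numbers.

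Bins, excess, fill and distances were computed in Python 3.11.15 (numpy 2.4.6, pandas 2.3.3) and checked on simulated profiles. The simulated background was a scaled 0 min profile, so the check does not cover a background of another shape. Groups were compared by two-sided exact permutation tests, over libraries. Clones pair WT with KD, as the same cell line. Deviations from the group means correlated at -0.0596, -0.819, -0.456 and 0.967 at 0, 10, 25 and 40 min (30 bins of 1 kb). This r is across neighbouring positions and not across replicates, so it does not measure whether the clones pair in level. At 40 min the mean deviation of clone 15 was 0.0219 in WT and -0.0673 in KD. Alternatives covered scaling, background, thresholds, pairing and left-out clones. No genes are named, as the profiles hold none singly: all 6 bins are. The window, bins and measures were chosen with earlier results of these data known.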

Additional observations from a re-analysis of the deposited data

Results flagged for a closer look

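In 3 of 38 sets of 4 libraries that were examined, 1 library lay far from the other three, where chance gives about 1 in 20, or 1.9. Depth between 30 and 35 kb less that between 55 and 60 kb at 0 min was -0.0120 in KD of clone 15, and the nearest other library had -0.226. Depth between 30 and 35 kb at 25 min was 2.70 in WT of clone 18, the nearest other value being 2.24. Depth between 40 and 45 kb at 25 min was 1.34 in WT of clone 15, the nearest other value being 1.51.

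In other comparisons KD moved one way from WT in clone 15 and the opposite way in clone 18, and with 1 library per clone, genotype and time these differences between clones were not tested. At 25 min the log2 ratio of KD to WT was higher in clone 15 than in clone 18 by 0.21 over the window, by 0.42 between 35 and 40 kb and by 0.0676 between 55 and 60 kb. At 40 min the clone 15 ratio less that of clone 18 was -0.0744 over the window, -0.18 between 30 and 35 kb, -0.13 between 35 and 40 kb and -0.0974 between 40 and 45 kb. At the same time, the difference of KD from WT was in clone 15, less that in clone 18, -0.325 for excess depth, -0.524 for the decline across the window, 11.1 percentage points for fill and 11.8 kb for the distance of 50% fill.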

How the results depend on the processing

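Of 230 values of 35 results under the alternatives, 201 kept their direction and side of the threshold. Another 22 values of 15 results reversed, 4 became weaker, 2 stronger and 1 moved. For KD against WT no p could pass 0.05, so only the direction could change there. Pairing leaves such a value itself unchanged, and left-out clones gave no p in those comparisons. The 201 is therefore no measure of stability. Against a level background, KD minus WT became 0.0579 for excess and 1.28 percentage points for fill at 25 min, and 0.0406 for excess at 40 min. With the WT 0 min profile as background for both genotypes, chosen after seeing the data, they became 0.0569, 1.22 and 0.0411. With the 10 min profiles as background, excess went the other way, to -0.218 at 25 min and -0.221 at 40 min (p = 0.333 for each, exact permutation test). KD of clone 15 has a level 0 min profile, and its part in these reversals was not tested. With 20% fill as the threshold, the mean number of bins reached at 25 min was 0.25. Scaling to the same depth at 110 to 120 kb or the same total turned the log2 step from 10 to 25 min to -0.11 and -0.27 over the window, and made that of the bin at 40 to 45 kb -0.33 and -0.49, both at p = 0.0286 (exact permutation test). Without that scaling the step of this bin was -0.05, and 0.0226 without KD of clone 15. Equal totals also turned the log2 ratio of KD to WT between 40 and 45 kb at 40 min to -0.00371. The cause of these changes was not tested.

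With the replicate block, by series of clone and genotype, the step from 25 to 40 min kept its size of 1.0 at p = 0.125, and without KD of clone 15 it was 1.01 at p = 0.1, each the smallest p of its exact test. Of the single bins' time steps in the window, 16 passed 0.05 without the pairing and 0 with it, and the window's share of depth lost its calls likewise (exact sign-flip test, p = 0.125). For KD against WT no call existed to lose. Pairing the clones crosswise gave no call either.

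Leaving out 1 clone at a time gave log2 ratios of KD to WT over the window from -0.10 to 0.11 at 25 min and from -0.00923 to 0.0652 at 40 min. By bin the range was from -0.21 to 0.21 at 35 to 40 kb and from -0.000375 to 0.0672 at 55 to 60 kb at 25 min. At 40 min it was from -0.12 to 0.0664 at 30 to 35 kb, from -0.0675 to 0.0608 at 35 to 40 kb and from -0.0246 to 0.0728 at 40 to 45 kb. KD minus WT at 40 min ran from -0.258 to 0.0673 for excess, from -1.37 to 9.78 percentage points for fill, from -0.498 to 0.0261 for the decline and from -1.12 to 10.7 kb for the distance of 50% fill. The step from 25 to 40 min ran from 0.97 to 1.03 (p = 0.333, the smallest of an exact test) and that of the bin at 40 to 45 kb from 10 to 25 min from -0.14 to 0.0399.

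The number of clones, not read depth, limits these comparisons: 2 against 2 libraries cannot give p below 0.333. The profiles hold no single genes, so the spread among genes behind each mean is unknown.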
